A study of Homo sapiens with 6 samples.

Results

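The metallothionein genes, the zinc-sensing transcription factor MTF1 and the zinc exporter SLC30A1 were followed in HepG2 cells with and without overexpression of PBLD. The members were 10 gene symbols, and a probe was taken as a member where the array annotation gives it one of these symbols. Of the 10, 9 had a probe and were measured by 12 probes, out of 20046 genes and 47323 probes on the array. MT1A was not analysed here. The set was chosen with the difference between PBLD overexpressed and control cells in view, so the members' differences are given below as a description and none of them is tested. HepG2 is an established human cell line, grown from a tumour of the liver, in which many hepatocyte genes stay active. The labels give 2 groups of 3 samples, control HepG2 cells and HepG2 cells in which PBLD is overexpressed, with 1 Illumina bead array for each sample. What the control cells carried, how PBLD was delivered and whether a group was 1 clone are not stated in the labels, so an effect of the delivery and an effect of PBLD cannot be told apart.

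Metallothioneins are small cysteine-rich proteins that bind zinc, copper and cadmium, and the liver is one of the tissues that makes most of them. MTF1 is the zinc-finger factor that senses free zinc in the cell and binds metal response elements in the promoters of the metallothionein genes and of SLC30A1. SLC30A1, also called ZnT1, sits in the plasma membrane and moves zinc out of the cell. Metallothionein genes are also induced by cadmium, oxidative stress and glucocorticoid hormones.

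The values are on the deposited log2 scale, on which every array has a median of 8. A background limit was set on each array from 590 probes, as the 95th percentile of their values, for olfactory, taste, vomeronasal and keratin-associated genes, all silent in liver, and lay between 8.06 and 8.09. Between 39.3% and 41.5% of probes lay above it, and the brightest probe of each array read between 15.73 and 16.04. Pearson's r across probes was 0.995 to 0.996 within each group and 0.99 to 0.992 between groups. PBLD itself read 8.0, 8.07 and 8.18 on the control arrays and 12.62, 12.84 and 12.72 on the PBLD arrays with probe ILMN_1789653, in the direction of the labels. A second PBLD probe, ILMN_2304404, had means of 7.84 and 12.25, while ILMN_1699684 (7.96 and 7.91) and ILMN_1760748 (7.96 and 8.0) were above the limit on no array. Of 9 measured hepatocyte markers, 9 were above the limit on all 6 arrays, and 4 fell in PBLD cells in limma, namely TTR (-0.59, adjusted p = 3.08e-05), APOB (-0.31), SERPINA1 (-0.31) and APOA1 (-0.30). On average over these 9, control arrays read 14.77 to 14.94 and PBLD arrays 14.62 to 14.75. Of 9 measured markers of other cell types, 6 were above it on no array, while LYZ (14.50 in control and 14.18 in PBLD cells) and CD3D (8.78 and 8.37) were above it on all 6. On average over the markers of other cell types, control arrays read 8.71 to 8.77 and PBLD arrays 8.63 to 8.66. The part of either shift in the results below was not tested. The labels do not say whether replicates came from separate cultures, so the p-values below rest on a spread that may be technical, and precision is limited by having 3 arrays per group. Each array measured RNA from a whole culture, so fewer expressing cells and less RNA per cell cannot be told apart.

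The promoters of 5 members were in the RefSeq promoter table of build GRCh38.p14, namely MT1H, MT1X, MT2A, MTF1 and SLC30A1. MT1A, MT1E, MT1F, MT1G and MT1M were not in it. They were searched for the core of the metal response element, TGCACNC or TGCGCNC, on both strands, from 250 bases before the gene's start to 50 after it, and no 2 matches overlapped in these members. The 250 bases before the start are printed for the 4 members with a match, to show where the matches lie. Capitals mark the matches, and a match on the other strand reads as its reverse complement. The regions are chr16:56669564-56669813 (plus strand), chr16:56682220-56682469 (plus strand), chr16:56608334-56608583 (plus strand) and chr1:211579162-211579411 (minus strand).
MT1H: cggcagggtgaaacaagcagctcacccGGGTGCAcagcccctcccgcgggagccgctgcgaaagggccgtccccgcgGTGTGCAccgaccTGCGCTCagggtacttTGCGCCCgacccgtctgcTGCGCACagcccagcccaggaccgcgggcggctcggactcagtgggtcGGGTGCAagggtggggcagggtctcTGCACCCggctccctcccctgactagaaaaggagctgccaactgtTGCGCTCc
MT1X: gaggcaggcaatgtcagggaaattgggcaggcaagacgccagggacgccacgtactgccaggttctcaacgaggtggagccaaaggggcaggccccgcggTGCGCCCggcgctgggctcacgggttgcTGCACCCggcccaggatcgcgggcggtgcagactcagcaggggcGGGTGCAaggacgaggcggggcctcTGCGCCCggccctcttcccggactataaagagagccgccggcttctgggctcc
MT2A: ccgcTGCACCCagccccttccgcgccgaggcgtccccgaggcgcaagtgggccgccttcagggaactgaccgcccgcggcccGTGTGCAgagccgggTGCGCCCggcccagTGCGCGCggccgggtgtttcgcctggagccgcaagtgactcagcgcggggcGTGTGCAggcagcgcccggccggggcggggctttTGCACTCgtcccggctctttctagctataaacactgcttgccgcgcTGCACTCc
SLC30A1: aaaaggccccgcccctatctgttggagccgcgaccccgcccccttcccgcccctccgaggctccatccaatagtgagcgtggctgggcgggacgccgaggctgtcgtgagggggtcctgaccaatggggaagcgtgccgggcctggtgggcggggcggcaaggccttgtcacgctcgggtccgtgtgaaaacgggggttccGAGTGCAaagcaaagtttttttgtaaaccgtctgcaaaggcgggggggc

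The MT1H promoter held 8 matches in the searched window, all of them before the start. MT2A also held 8, of which 7 lay wholly before the start. MT1X held 4 and SLC30A1 held 2, of which 1 lay before the start. The MTF1 promoter held 0. Outside the members, the metallothionein genes MT1B and MT4 held 3 each, and 2.27% of all promoters held at least 3. Of the 27305 promoters in the table, 29.3% held at least 1 match, 8.59% at least 2, 0.593% at least 4 and 0.022% at least 8. A match is a description of the letters and not a binding site. The TATA box sequence TATAAA was present in MT1X and MT2A and in 12% of all promoters, and the letters TGACNNNGC of the antioxidant response element were present in MT1X, MT2A and SLC30A1 and in 13.6% of all promoters. The 250 bases were aligned in pairs, and shares were taken over the alignment length with gaps, 276 positions for MT1H and MT1X. MT1H and MT1X shared 61.2% of positions, MT1X and MT2A 53.9%, and MT1H and SLC30A1 48.4%. MTF1, whose promoter held 0 matches, shared 50.7% with MT1H and 46.7% with SLC30A1.

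In PBLD overexpressed cells the metallothionein transcripts read higher than in control cells, most of all those of MT1H, MT1G and MT1F. Their mean differences were 1.69, 1.57 and 1.22 on the log2 scale. MT1X and MT1E read moderately higher, at 0.70 and 0.57, and MT2A and the dim MT1M differed by 0.33 and 0.25. The median over the 7 measured metallothioneins was 0.70, beside 0.01 over all 20046 genes tested. Among the 7, 6 had groups that did not overlap, and for all genes the share whose groups did not overlap, with PBLD higher, was 13.6%. Since the set was chosen on this contrast, nothing is read from this count.

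**Figure D1:**
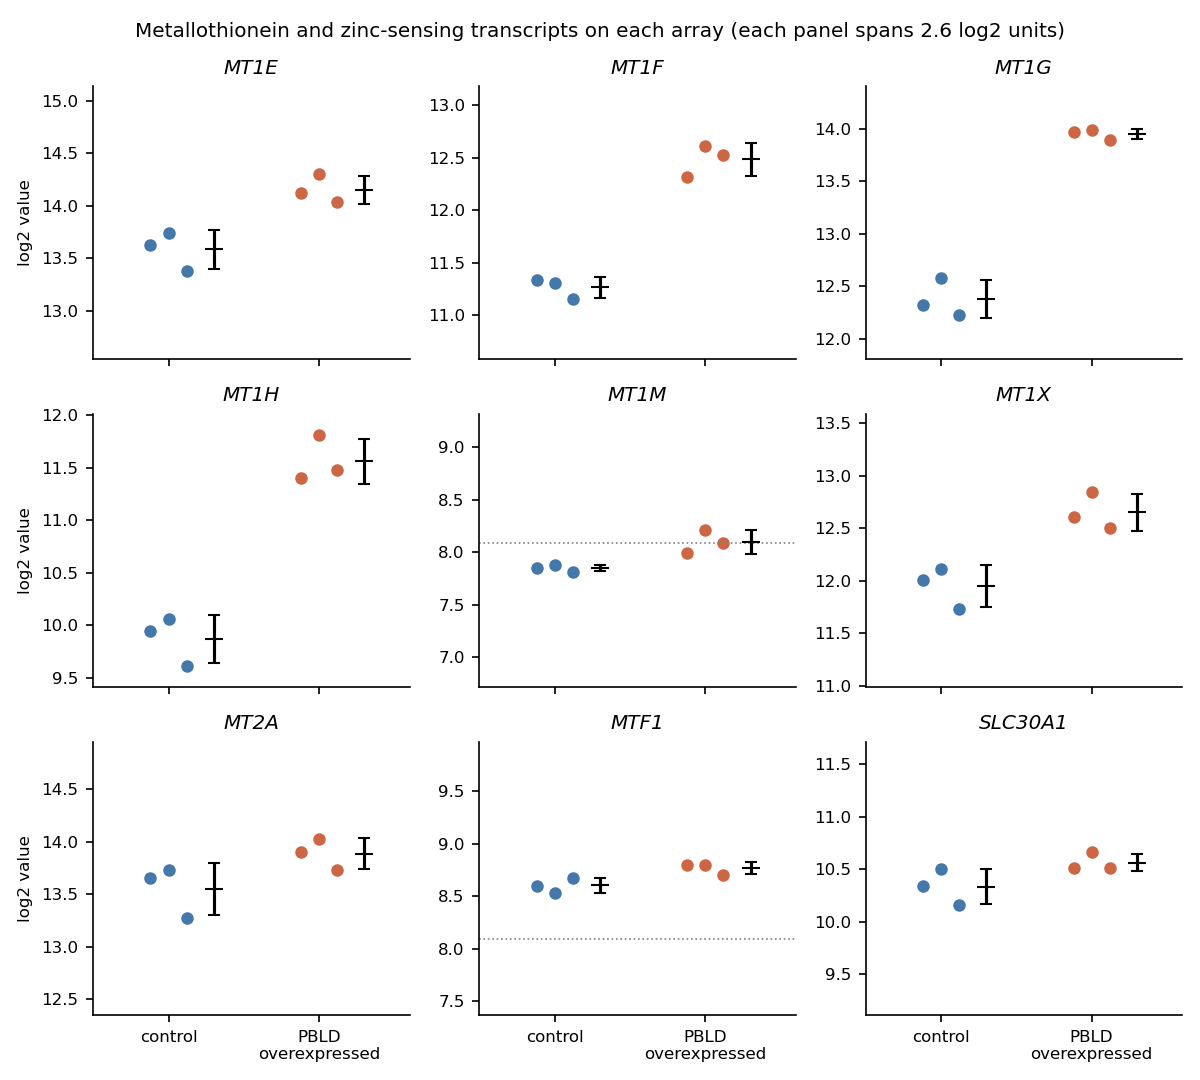
Each panel shows the deposited log2 value of 1 gene on the 3 control arrays (blue) and the 3 PBLD overexpressed arrays (orange), with the group mean and SD in black; panels share the same span but not the same range, and the dotted line is the highest background limit, 8.09. MT1F, MT1G and MT1H show the widest gaps between the groups, and MT1M lies at the limit.

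MT1H encodes one of the MT1 isoforms, which share their fold and metal-binding cysteines. Its brighter probe, ILMN_2124802, read 9.95, 10.06 and 9.62 on control arrays 1 to 3 and 11.40, 11.81 and 11.48 on PBLD arrays 1 to 3. The lowest PBLD array lay 1.35 above the highest control array. The means were 9.87 ± 0.23 and 11.56 ± 0.22 (SD, n = 3 each), a difference of 1.69 (SE 0.11), which is 3.23-fold on this scale. A second MT1H probe, ILMN_1683923, was above the background limit on no array and its means were 7.88 and 7.89.

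MT1G read 12.33, 12.58 and 12.22 on the control arrays and 13.96, 13.99 and 13.89 on the PBLD arrays. All 3 PBLD arrays were higher, with a gap of 1.31 between the groups. The means were 12.38 ± 0.18 and 13.95 ± 0.05, a difference of 1.57 (SE 0.08), or 2.98-fold. MT1F read 11.33, 11.31 and 11.15 in control cells and 12.31, 12.61 and 12.53 in PBLD cells. Here too the groups did not overlap, with a gap of 0.98. The MT1F means were 11.26 ± 0.10 and 12.48 ± 0.15, a difference of 1.22 (SE 0.08), or 2.33-fold.

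MT1X read 12.01, 12.11 and 11.73 in control cells and 12.61, 12.85 and 12.51 in PBLD cells. The gap between the groups was 0.39, and the means of 11.95 ± 0.20 and 12.65 ± 0.17 differed by 0.70 (SE 0.10), or 1.62-fold. The brighter MT1E probe, ILMN_2173611, read 13.63, 13.75 and 13.38 in control cells and 14.12, 14.30 and 14.03 in PBLD cells. All PBLD arrays were again higher, by a gap of 0.29, and the MT1E means of 13.59 ± 0.19 and 14.15 ± 0.14 differed by 0.57 (SE 0.09), or 1.48-fold. The other MT1E probe, ILMN_1718968, lay at the background limit, with means of 8.13 and 8.07 and groups that overlapped.

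MT2A, usually the most widely expressed metallothionein of human tissues, was the member of the family whose groups overlapped. It read 13.65, 13.73 and 13.27 in control cells and 13.91, 14.03 and 13.73 in PBLD cells, so that PBLD array 3 fell at the level of control array 2. The MT2A means were 13.55 ± 0.25 and 13.89 ± 0.15, a difference of 0.33 (SE 0.10), or 1.26-fold. Without control array 3 the MT2A difference was 0.19. MT1M read 7.85, 7.87 and 7.81 in control cells and 7.99, 8.21 and 8.08 in PBLD cells. It was above the limit on 0 of 3 control arrays and 2 of 3 PBLD arrays. On the PBLD mean as read, its difference is a bound, at least 1.02-fold higher in PBLD cells. That mean includes PBLD array 1, which lay below its own limit of 8.09, and the bound leaves out the spread between arrays. The measured MT1M means were 7.85 ± 0.03 and 8.10 ± 0.11, a difference of 0.25 (SE 0.07). After normexp background correction and quantile normalization, which spread the low end of the scale, the MT1M difference was 0.63. The MT1 genes are close relatives, so which of them a probe measures is uncertain, and the array annotation is the one basis for the names used here.

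MTF1, the zinc sensor, read 8.60, 8.54 and 8.68 in control cells and 8.80, 8.80 and 8.71 in PBLD cells, on all arrays above the background limit but near it. The lowest PBLD array lay 0.03 above the highest control array. The MTF1 means were 8.61 ± 0.07 and 8.77 ± 0.05, a difference of 0.16 (SE 0.06) or 1.12-fold, and the difference was 0.26 after normexp background correction. These are transcript levels and say nothing of how much MTF1 protein was in the nucleus, where it acts.

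SLC30A1 was measured by a pair of probes that both lay well above the limit. ILMN_1745021 read 10.34, 10.50 and 10.16 in control cells and 10.52, 10.66 and 10.51 in PBLD cells, with a gap of 0.01 between the groups. The means were 10.33 ± 0.17 and 10.56 ± 0.08, a difference of 0.23 (SE 0.08) or 1.17-fold, which was 0.14 without control array 3. ILMN_2067852 read 9.72, 9.87 and 9.47 in control cells and 9.93, 9.96 and 10.02 in PBLD cells, and its difference was 0.29 (SE 0.09) with a gap of 0.06. The exporter's differences were thus close to that of MT2A and below those of MT1E, MT1X, MT1F, MT1G and MT1H on the log2 scale.

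Ordered by difference, the members ran from MT1H, MT1G and MT1F through MT1X and MT1E to MT2A, MT1M, SLC30A1 and MTF1. Intervals of 1 standard error on either side overlapped for MT1H and MT1G and for MT1X and MT1E. They also overlapped for each neighbouring pair among MT2A, MT1M, SLC30A1 and MTF1. Between MT1G and MT1F, MT1F and MT1X, and MT1E and MT2A the intervals did not overlap. All genes were read on the same arrays, so these intervals do not test a step between genes. The values are differences of each probe between groups, and no level of one probe is set against another's.

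The members with the largest differences were neighbours on their chromosome. In the RefSeq annotation of GRCh38.p14 the metallothionein cluster on chromosome 16 holds 11 protein-coding metallothionein symbols, in the order MT4, MT3, MT2A, MT1E, MT1M, MT1A, MT1B, MT1F, MT1G, MT1H and MT1X. The 3 genes with differences above 1 stand side by side. Across the array 0.0748% of genes, these 3 among them, had a difference of at least 1 in that direction. The set was chosen on this contrast, so nothing is read from that share. Probes of these close relatives may also not tell them apart. The 5 measured protein-coding genes on each side of the cluster were compared. Among them, CES5A, GNAO1, SLC12A3, NLRC5 and CPNE2 were above the background limit on no array. Of the 10 neighbours, 1 changed in limma at an adjusted p threshold of 0.05, beside 10.0% of all genes. That gene was NUP93, which encodes a nuclear pore protein and is the nearest measured neighbour of MT1X, with means of 11.02 ± 0.09 and 11.33 ± 0.12 (n = 3 each), a difference of 0.30 (SE 0.07, limma adjusted p = 0.0185). The call was lost without control array 3 or PBLD array 1, where 0 of the 10 passed, and without PBLD array 2, where the neighbour CETP, a plasma lipid transfer protein, passed as lower. Without PBLD array 3, 2 passed. NUP93 also lost its call after normexp background correction and at a threshold of 0.01, where 0 of the 10 passed, and under an intensity trend with robust eBayes, where 1 passed as lower. After 75th percentile scaling, with array weights or with the replicate number as a block, 3 of the 10 passed, 2 higher and 1 lower. On the other side, BBS2, a gene of the primary cilium and the nearest measured neighbour of MT4, differed by -0.10 (SE 0.09, limma adjusted p = 0.769), and OGFOD1 by 0.23 (adjusted p = 0.0548).

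**Figure D2:**
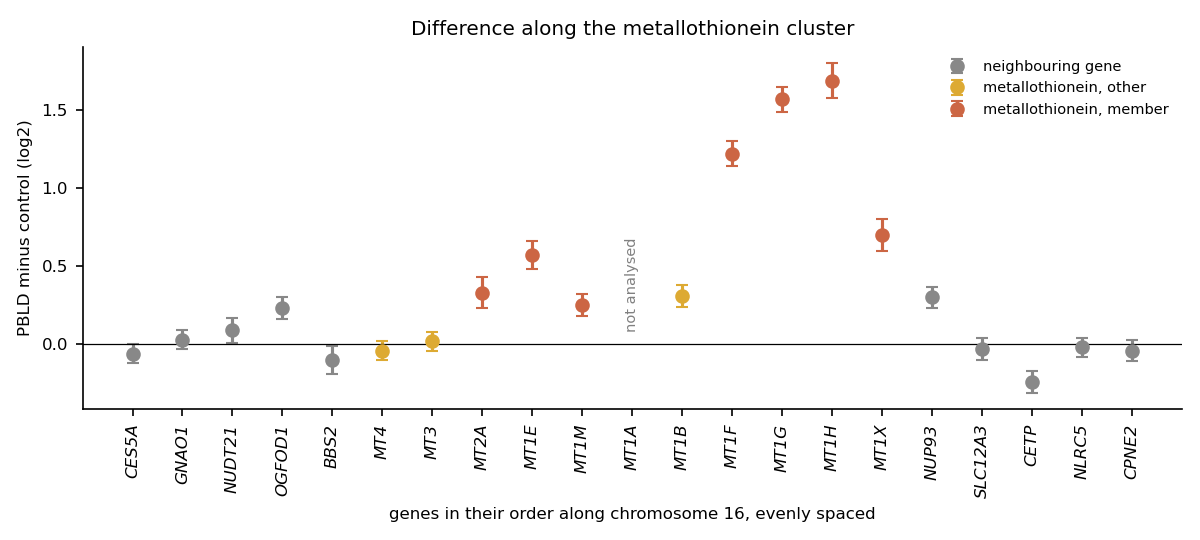
Difference between PBLD overexpressed and control cells (log2, with its SE from limma) for the metallothionein genes and 5 measured neighbours on each side, in their order along chromosome 16 and evenly spaced, 1 probe per gene. MT1F, MT1G and MT1H, at 1.22 to 1.69, stand next to each other, and the 10 neighbours lie between -0.24 and 0.30. Among the neighbours, CES5A, GNAO1, SLC12A3, NLRC5 and CPNE2 were above the background limit on no array.

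Of 5 other metallothionein symbols with a probe, out of 10 looked for, 1 rose and 4 did not pass. Over all genes, 5.81% were called higher. MT1B, another MT1 isoform of the cluster, rose from 7.85 ± 0.08 to 8.15 ± 0.08 (n = 3 each), a difference of 0.31 (SE 0.07, limma adjusted p = 0.0106). It was above the limit on 0 control arrays and 2 PBLD arrays. On the PBLD mean as read it was at least 1.06-fold higher, and the difference was 0.75 after normexp background correction. The call was lost without control array 1 or PBLD array 1, where 0 of the 5 passed. The pseudogenes MT1L (0.12) and MT1IP (0.03) and the genes MT3 (0.02), known mainly from brain, and MT4 (-0.04), known from stratified epithelium, did not pass, and MT3, MT4 and MT1IP were above the limit on no array.

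Among the zinc transporters, importers passed the test in either direction and the other exporters did not pass it. Of 9 other zinc exporters of the SLC30 family, 0 passed in limma. An unadjusted limma p under 0.05 was reached by 1 higher and 2 lower, beside 2529 higher and 1823 lower of all 20046 genes. The exporters' differences ran from -0.17 to 0.17, with a median of -0.01. The ends of this range were held by SLC30A6 (0.17, adjusted p = 0.173) and SLC30A7 (-0.17, adjusted p = 0.211), both transporters of the secretory pathway, and by SLC30A9 (-0.17, adjusted p = 0.305). Of 14 zinc importers of the SLC39 family, which bring zinc into the cytosol, 1 rose, 2 fell and 11 did not pass. SLC39A3 rose from 11.42 ± 0.14 to 11.97 ± 0.17 (n = 3 each), a difference of 0.55 (SE 0.09, limma adjusted p = 0.000818). Other SLC39A3 probes gave 0.22 (adjusted p = 0.0926) and 0.01 (adjusted p = 0.974). SLC39A4, an importer known from the intestine, fell by 0.36 (limma adjusted p = 0.00678), and its other probes gave -0.31 and -0.08. SLC39A10, which MTF1 is reported to repress in mouse cells, fell by 0.26 (limma adjusted p = 0.0477). SLC39A14, an importer of zinc and iron in liver, read 12.40 ± 0.02 and 12.36 ± 0.03, a difference of -0.04 (adjusted p = 0.909). All 3 importer calls were lost after normexp background correction, and that of SLC39A10 also without control array 1, control array 2 or any 1 PBLD array. The shares of all genes called were 5.81% higher and 4.20% lower.

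Of 10 other genes reported to respond to MTF1, in part in mouse cells, 1 rose, 3 fell and 6 did not pass. NDRG1, a stress-response gene, fell from 13.07 ± 0.11 to 11.98 ± 0.13 (n = 3 each), a difference of -1.09 (SE 0.08, limma adjusted p = 2.89e-07). SLC40A1, which encodes the iron exporter ferroportin, fell by 1.08 on the log2 scale (SE 0.09, limma adjusted p = 8.57e-07) on its brighter probe and by 0.27 on the other. SELENOW, a small selenoprotein, rose by 0.28 (limma adjusted p = 0.0248), and SLC39A10 is the importer described above. GCLC, the catalytic subunit of the enzyme that begins glutathione synthesis, read 8.95 in both groups. The calls of SELENOW and SLC39A10 were both lost after normexp background correction, without PBLD array 1 and without PBLD array 2, leaving 2 of 10 in each case, and SELENOW's also without control array 1 or 3. The median of these 10 genes was 0.03, beside 0.01 over all genes, of which 5.81% were called higher and 4.20% lower. The list was not split by whether MTF1 is reported to induce or, as for SLC39A10, to repress a gene. Its counts and median therefore do not measure a response in 1 direction.

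Copper, which metallothioneins also bind, was covered by 16 genes, of which 3 rose, 2 fell and 11 did not pass. Over all genes, 5.81% were called higher and 4.20% lower. CP, which encodes the plasma copper protein ceruloplasmin, fell from 10.04 ± 0.09 to 9.10 ± 0.05 (n = 3 each), a difference of -0.94 (SE 0.07, limma adjusted p = 2.27e-07). CCS, the chaperone that loads copper into superoxide dismutase, fell by 0.32 (adjusted p = 0.0119). STEAP3, a metalloreductase, rose by 0.35 (adjusted p = 0.00245), and the mitochondrial copper proteins SCO1 (0.29, adjusted p = 0.0403) and COX17 (0.26, adjusted p = 0.0456) rose as well. The copper importer SLC31A1 (0.15) and the exporter ATP7B (0.05) did not pass. The calls of CCS, SCO1 and COX17 depended on single arrays, and 3 of the 16 passed without control array 1, control array 3 or PBLD array 2, and 2 without control array 2 or PBLD array 1. STEAP3 kept its call with any 1 array left out, and lost it after normexp background correction and when its probes were averaged. The other STEAP3 probes, both dim, gave -0.04 and 0.17. After normexp background correction 1 of the 16 passed, and it was lower. CP was called in all alternatives run, with a limma adjusted p of at most 0.000479.

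Genes induced by cadmium and other metal stress were followed beside the metallothioneins. Of 18 measured, 7 rose, 1 fell and 10 did not pass, with a median of 0.15. The shares called over all genes were 5.81% higher and 4.20% lower. The 6 with the smallest p among the rises held heat shock chaperones, namely HSPA1A (1.25, SE 0.09, limma adjusted p = 2e-07), HSPA1B (1.03), HSPH1 (0.99), DNAJB1 (0.50) and HSPA6. HSPA6, a strictly inducible HSP70, read 7.99 ± 0.05 in control cells, above the limit on 0 arrays, and 9.02 ± 0.06 in PBLD cells, at least 1.92-fold higher (limma adjusted p = 5.84e-08), and differed by 1.82 after normexp background correction. Its second probe gave 0.19 (adjusted p = 0.163). TXNRD1, thioredoxin reductase, was the sixth (0.30, limma adjusted p = 0.00847) and lost its call after normexp background correction. A second TXNRD1 probe, also above the limit on all arrays, gave 0.17 (limma adjusted p = 0.226). HMOX1, haem oxygenase 1, which cadmium induces strongly, went the other way, from 10.32 ± 0.15 to 9.71 ± 0.16 (n = 3 each), a difference of -0.61 (SE 0.09, limma adjusted p = 0.000315). The seventh rise was that of NQO1, a quinone reductase of the antioxidant response (0.28, limma adjusted p = 0.0458), named after its values were seen. Its call was lost after normexp background correction, under an intensity trend with robust eBayes, when its probes were averaged, at a threshold of 0.01, and without control array 2, control array 3, PBLD array 1 or PBLD array 2. The glutathione genes GCLM (0.03) and GCLC and the antioxidant gene SRXN1 (0.02) did not pass. HSPA1A and HSPA1B are near-identical, so their probes may not tell them apart.

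Of 13 genes induced by glucocorticoid, 0 rose, 4 fell and 9 did not pass in limma, with a median of -0.16. Over all genes, 5.81% were called higher and 4.20% lower. An unadjusted limma p under 0.05 was reached by 1 higher and 7 lower. Over all 20046 genes it was reached by 2529 higher and 1823 lower. DUSP1, a phosphatase of MAP kinases, fell from 13.08 ± 0.13 to 10.91 ± 0.12 (n = 3 each), a difference of -2.17 (SE 0.08, limma adjusted p = 7.62e-11). IGFBP1, a secreted binding protein of insulin-like growth factors (-0.60), the kinase SGK1 (-0.45) and the transcription factor CEBPD (-0.41) fell too. SGK1 and CEBPD lost their calls after normexp background correction. FKBP5 (0.21, adjusted p = 0.125) and TSC22D3 (0.02, adjusted p = 0.962), which respond to the hormone in many cell types, did not pass.

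**Figure D3:**
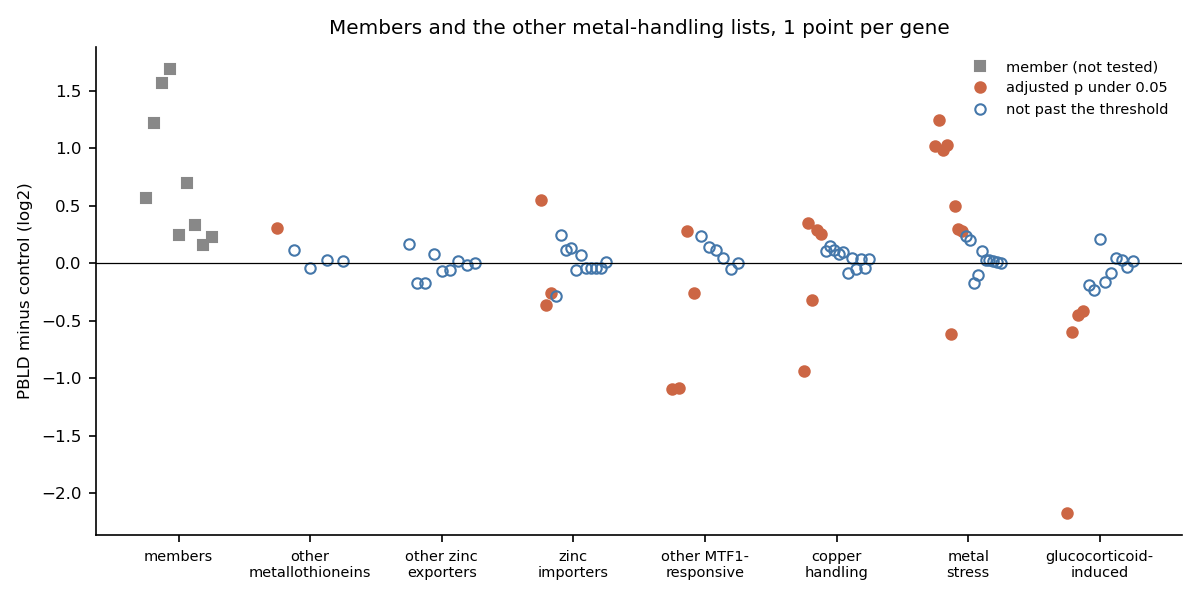
Difference between PBLD overexpressed and control cells (log2) for the 9 measured members and for the genes of 7 other lists, 1 point per gene; filled circles had a limma adjusted p under 0.05, open circles did not, and the members, as grey squares, are not tested. The zinc exporters lie within 0.17 of 0, while the metal stress list reaches 1.25 and the glucocorticoid list -2.17.

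Within each group the arrays ranked alike over the metallothioneins. Of the 6 metallothioneins above the limit on at least 3 arrays, 6 read lowest on control array 3 among the controls and 6 read highest on PBLD array 2 among the PBLD arrays. This pattern was common on the array: of 2592 genes at least as bright as the dimmest of the 6, 55.3% showed both. After quantile normalization 5 of the 6 were still lowest on control array 3 and 3 highest on PBLD array 2, against 36% and 29.8% of those genes. In the deposited values 5 of the 6 also read highest on control array 2, and 4 read lowest on PBLD array 3. Replicate number 2 thus mostly read high and number 3 mostly low in both groups. The share of other genes with this fuller order was not counted. Mean metallothionein values were 12.15, 12.26 and 11.90 on control arrays 1 to 3 and 13.05, 13.26 and 13.03 on the PBLD arrays. The groups' means of 12.10 ± 0.18 and 13.11 ± 0.13 differed by 1.01.

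Over the 6 arrays, Pearson's r with the mean of the other metallothioneins was 0.996 for MT1H, 0.982 for MT1X, 0.978 for MT1G, 0.977 for MT1E and 0.976 for MT1F. It was 0.936 for MT1M, 0.869 for SLC30A1, 0.831 for MT2A and 0.76 for MTF1. The 6 arrays fall into 2 groups and share their scaling, so these values mostly repeat the group difference. Of 10872 other genes above the limit, 593 (5.45%) had an r of at least 0.95 with the mean metallothionein profile, and 1018 had without PBLD array 3. The 5 most like it were SMN2, a survival motor neuron gene (0.999), GSTA1, a glutathione transferase of liver (0.998), TFDP1, the partner of E2F factors (0.998), HPX, the haem scavenger hemopexin (0.998), and HAMP, which encodes the iron hormone hepcidin (0.998). GSTA1 read 11.25, 11.41 and 11.05 in control cells and 12.21, 12.52 and 12.23 in PBLD cells, a difference of 1.08. HAMP read 11.16, 11.35 and 10.91 and then 12.09, 12.32 and 12.02, a difference of 1. HPX differed by 0.99 and TFDP1 by 0.64. SMN2, near-identical to SMN1, differed by 0.21, so a high r here marks the shape over the arrays and not the size.

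**Figure D4:**
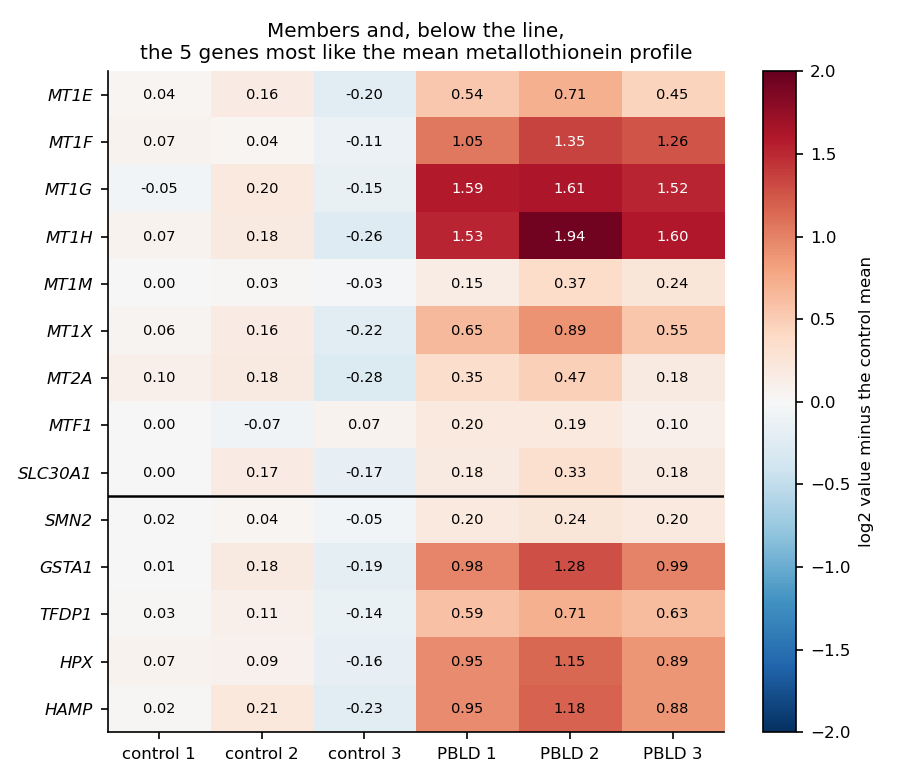
Log2 value minus the gene's control mean, for the 9 measured members (above the line) and the 5 genes with the highest r with the mean metallothionein profile (below it), with 1 column per array and the value in each cell. Control array 3 is the lowest control for every member but MTF1, and PBLD array 2 is the highest PBLD array for every member but MTF1.

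The number of metal response element matches was set against the calls for the genes that are no members. Of 9821 tested genes with no match in the searched window, 6.16% rose and 4.24% fell. Of 5208 with at least 1 match, 7.18% rose and 4.51% fell, and of 1631 with at least 2, 7.23% rose and 4.6% fell. Of 431 with at least 3, 39 rose (9.05%) and 18 fell (4.18%). Of 108 with at least 4, 9 rose (8.33%) and 1 fell (0.926%). Of 26 with at least 5, 2 rose (7.69%) and 1 fell (3.85%). Of all 20046 genes, 5.81% rose and 4.20% fell, but these include genes with no promoter in the table. They are therefore not a like baseline for the classes above. The differences between the shares were not tested. Among the members, MT2A had as many matches as MT1H and a difference of 0.33 against 1.69.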

How the data were processed

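Total RNA from 3 control and 3 PBLD overexpressed HepG2 samples was hybridised to Illumina bead arrays. The authors deposited a table of values that fit log2 intensity, each array with a median of 8. The submitters' processing notes name BeadStudio. Scaling, background treatment and log step are not stated in the labels or the file header. A second table of signals, with 12 per-sample columns, was not used because its column names match no sample's labels. Probes were named from the platform annotation (30113 with 1 symbol, 8 with several and 17202 with none), and 30074 of 30121 matched RefSeq genes of GRCh38.p14 by Entrez identifier, which changed 0 symbols. Probes have no coordinates here, as the array's build is unnamed.

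Differences are PBLD overexpressed minus control, fitted on all 47323 probes with limma 3.58.1 (lmFit, eBayes, two-sided) in R 4.3.3, adjusted by Benjamini-Hochberg across the probes, at a threshold of 0.05. The brightest probe on average stands for its gene. Where a group had 0 arrays above the background limit, the fold is a bound, the brighter group's mean over the dim group's with each of its arrays raised to the limit. The brighter group's mean is taken as read, and the bound leaves out the spread between arrays. The members, lists and tests were chosen with earlier results of these data known. Named are all members, every changed gene of a list (at most 6 per direction, by p), the 5 genes most like the mean metallothionein profile and, as examples chosen after their values were seen, some that did not pass. The chromosome neighbours were added after the files were seen. Gene by gene, samples with the same replicate number deviated together only weakly (r of 0.11, 0.08 and 0.06 over genes above the limit). A shift of a whole array does not enter this r, so it cannot decide whether the numbers mark pairs. The arrays' 75th percentiles were 8.58, 8.58 and 8.5 for controls 1 to 3 and 8.54, 8.6 and 8.51 for PBLD arrays 1 to 3. The numbers were not taken as pairs in the main fit, and a replicate block was run as an alternative. Alternatives were quantile, 75th percentile and cyclic loess scaling, normexp (offset 50) then quantile, a trend with robust eBayes, array weights, leaving out each array, a replicate block, averaged probes, a filter on dim probes and a threshold of 0.01. The limma calls were tested on simulated data with independent noise and no shift of whole arrays, and the motif search on short made-up sequences. The other steps were not tested in this way. Promoter searches used Python 3.11.15 and alignments Biopython 1.88. Figures were drawn with matplotlib 3.10.9.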

Additional observations from a re-analysis of the deposited data

How the results depend on the processing

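The 9 members' differences kept their direction in all settings run. Of 108 member values recomputed, 104 moved by less than 1 SD, and the 4 others were MT1E (0.25) and MT1H (0.85) when averaged with their second, dim probes, and MT1M (0.63) and MTF1 (0.26) after normexp then quantile. The median metallothionein difference of 0.70 ran from 0.59 to 0.78 with 1 array left out and was 0.96 over the 6 members above the background limit on at least 3 arrays. With 2006 genes changed across the array, 1164 higher and 842 lower, the count was 1404 to 1950 with 1 array left out, 651 (245 higher and 406 lower) after normexp then quantile and 1171 at a threshold of 0.01. The split was 1290 higher and 1332 lower after quantile normalization. With the replicate number as a block the count was 2720, with 1581 higher and 1139 lower. Genes following the metallothionein profile numbered 561 to 1018 with 1 array left out, against 593.

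Of the list genes called, 24 in all, normexp then quantile lost 12 and changed the sign of 0, giving 0 of 14 zinc importers (against 3), 2 MTF1-responsive genes (against 4), 1 copper gene (against 5) and 2 glucocorticoid genes (against 4). An intensity trend with robust eBayes left 3 copper and 2 MTF1-responsive genes. The threshold of 0.01 left 2 copper, 2 MTF1-responsive and 0 other metallothionein genes. The filter on dim probes left 0 other metallothioneins, since it tested 0 of them. The zinc exporters, 0 in the deposited values, had 1 lower after quantile normalization and 2 lower after cyclic loess, and the importers had 5 after 75th percentile scaling. With 1 array left out, the counts ran from 2 to 6 for copper, 2 to 4 for MTF1-responsive genes and importers, 0 to 1 for other metallothioneins, 7 to 9 for metal stress and 4 to 5 for glucocorticoid. Except where fewer genes were tested, the cause was not tested. The replicate number as a replicate block gave 5 importers (2 higher and 3 lower) and lost 0 of the 24 calls. Metal response elements were in 4 of 5 member promoters, and TGCNCNC in 5. Probes near the background limit understate their folds.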
